A study of Homo sapiens with 18 samples.

Results

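The genes described here are those of small noncoding RNAs made mostly by RNA polymerase III or as spliceosomal transcripts of RNA polymerase II, and the pseudogene copies that carry their names. A gene was included when its symbol began with RNU, RNVU1, RNA5S, RN7SK, RN7SL, RNY or VTRNA, or was RMRP or RPPH1, and when it held at least 100 counts summed over the 9 ribosome footprint libraries. Of 61487 genes counted, 3389 had such a symbol, 666 of these had a footprint count and 120 reached the minimum; 2468 were listed at 0 in all 18 libraries. The footprint sums chose the members, so their footprint levels, and any difference between footprints and mRNA, are given as descriptions. One test across all genes, of Scramble against sgControl footprints, also covers members. Its log2 differences are given for some members as descriptions of size, and its calls helped pick which members are named. No result about members is drawn from those calls. RNU4-60P with 102 counts, RNA5SP77 with 105 and RNY3 with 105 lay just above the minimum, and RNY4P6 with 98, RNU2-59P with 95 and RNA5SP338 with 93 lay just below it.

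All libraries came from NCI-H1975, an established human lung adenocarcinoma cell line. The labels give 3 conditions: Scramble, sgControl (a CRISPR control) and sgDAMP (knockout of DAMP, a peptide encoded by the lncRNA gene DSP-AS1). Each condition had 3 poly(A) mRNA libraries and 3 ribosome footprint libraries, the latter from cells treated with cycloheximide at 100 μg/ml, an inhibitor that halts ribosomes on their messages. The labels do not say what the Scramble cells received beyond that name, nor whether the knockout cells are a clone or a pool, and nothing says that replicates came from separate cultures, so p-values measure the spread between these samples, which may be technical. The study used the Scramble libraries to look for translated lncRNAs and the other libraries to ask which messages depend on the peptide.

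Several libraries stood apart before any member was considered. Gene counts ran from 1035159 to 1302852 in Scramble footprints, against 6845899 to 7840852 in the sgControl and 6207783 to 6864945 in the sgDAMP footprint group, and from 10859527 to 17464782 in mRNA. Protein-coding genes held 6.37% to 20.2% of the gene counts in Scramble footprints, with the lowest share in replicate 3, but 78.9% to 79.3% in sgControl and 76.3% to 76.6% in sgDAMP footprints. Libraries of the sgControl and of the sgDAMP footprint groups differed across genes by less than sampling noise (mean chi-square per degree of freedom 0.909 and 0.910 over the lowest 99% of genes, against 16.0 in Scramble footprints), so each of those groups was summed and counted as 1 sample. Members beyond that noise were 8 of 86 in sgControl and 5 of 90 in sgDAMP, beside 57 of 12195 and 21 of 12454 of all genes, RNU1-67P, RNU1-146P, RNVU1-8 and RNU5A-1 among them in both groups. Of 6 epithelial genes, KRT7, KRT8, KRT18 and CDH1 were counted in all libraries, whereas KRT19 was at 0 in the 3 Scramble footprint libraries and had at most 73 counts elsewhere, and EPCAM had 0 or 1 in Scramble footprints and at most 37 elsewhere. NKX2-1 had at most 3 counts in any library and PTPRC and CD3E were at 0, while CD14 and COL1A1 reached 123 and 185 counts in an mRNA library. DSP-AS1 had 175, 176 and 216 footprint counts in sgControl and 0, 1 and 1 in sgDAMP, and 299, 328 and 309 mRNA counts in sgControl against 319, 324 and 336 in sgDAMP.

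U1, U2, U4, U5 and U6 are the RNAs of the major spliceosome: U1 pairs with the 5′ splice site, U2 with the branch point, and U4, U5 and U6 join as a tri-snRNP. U4atac serves the minor spliceosome, and U7 takes part in the processing of histone messages. The 5S RNA is a component of the large ribosomal subunit, 7SL is the RNA of the signal recognition particle, and 7SK holds the transcription factor P-TEFb in an inactive complex. Y RNAs bind the Ro60 and La proteins, and vault RNAs belong to the vault particle. None is a template for translation. The human genome carries many copies of each, and a read shared by identical copies has no single position. Reads with several positions made up 45.2% to 48.2% of the lines in Scramble footprints, 23.6% to 23.7% in sgControl footprints, 25.0% to 25.2% in sgDAMP footprints and 2.16% to 5.32% in mRNA, and the files list them apart from the genes. The count of any 1 copy is therefore uncertain, and so is a count inside the span of another gene, since no source used here says whether counting used strand; 50 of the 120 members lie within the span of a protein-coding gene.

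The 120 members comprised 28 of U1, 32 of 5S, 12 of U2, 11 of 7SL, 9 of U4, 8 of U5, 7 of Y, 6 of U6 and 4 of vault RNA, with 1 each of U7, U4atac and 7SK. By symbol 25 were genes and 95 were pseudogene copies. Pseudogene copies held 96.1% of the members' footprint counts in Scramble, 76.3% in sgControl and 75.4% in sgDAMP. Many reference genes of these families were at 0 in all libraries: RN7SK, RN7SL2, RNU2-1, RNU12, RNU7-1, RMRP, RPPH1 and 16 genes of the RNA5S series among them.

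Together the members took 8.42%, 17.7% and 8.13% of all gene counts in Scramble footprints. They took 8.51% of the summed gene counts in sgControl footprints (95% Clopper-Pearson interval 8.50% to 8.52%) and 9.95% in sgDAMP footprints (9.94% to 9.96%); these intervals cover counting error only. In poly(A) mRNA they took 0.00368% ± 0.00151 in Scramble, 0.0249% ± 0.00168 in sgControl and 0.0171% ± 0.00147 in sgDAMP (SD, n = 3), and 92 of the 120 had no mRNA count in any library. Different classes filled these shares. The 5S members held 88.2% of the members' counts in Scramble, whereas U1 members held 79.7% in sgControl and 78.7% in sgDAMP.

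**Figure D1:**
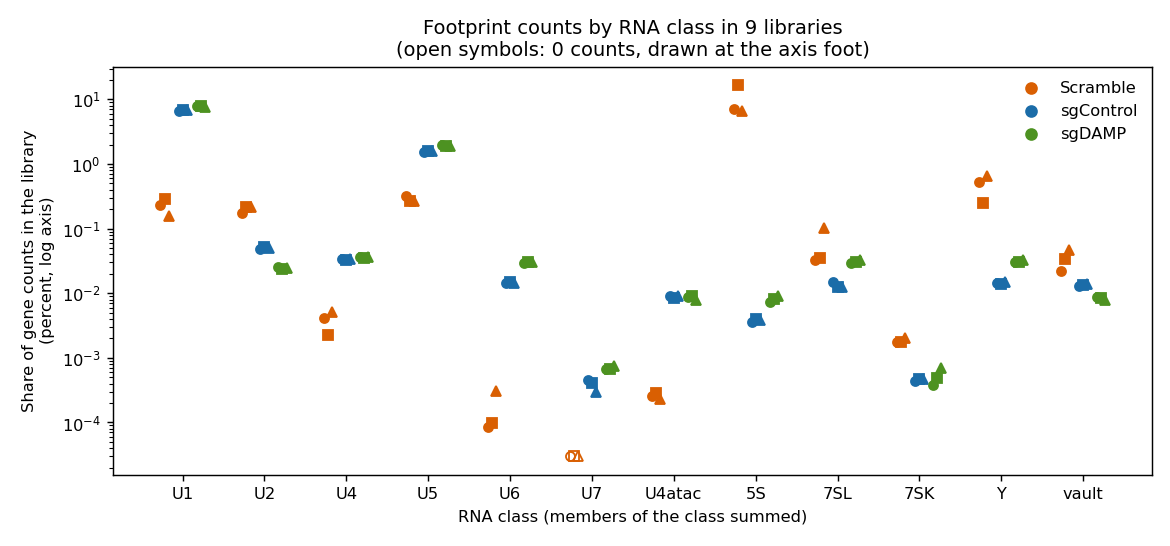
Share of each footprint library's gene counts (percent, log axis) held by the members of each RNA class, with 1 symbol per library (circle, square and triangle for replicates 1, 2 and 3) and open symbols for 0 counts. The 5S, Y, U2, 7SL and vault symbols of Scramble mostly lie above those of sgControl, and the U1, U4, U5, U6 and U4atac symbols lie below them.

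The U1 class was led by RNU1-67P, a pseudogene copy at chrX:119423742-119423905 (GRCh38) within the span of SLC25A43, which encodes a mitochondrial carrier protein. It had 381905, 435349 and 437266 counts in sgControl footprints, 431531, 472417 and 461517 in sgDAMP footprints, and 203, 294 and 128 in Scramble footprints. It was the gene with the most counts in both the sgControl and the sgDAMP footprint groups, with 65.6% and 69.0% of the members' counts, and ranked 167 in Scramble. None of the 9 mRNA libraries held a count of it. RNU1-146P on chromosome 12 had 34528, 42355 and 42309 counts in sgControl, 20973, 21544 and 20071 in sgDAMP, and 3, 6 and 2 in Scramble. RNVU1-8, a variant U1 gene on chromosome 1, was nearer to equal: its CPM (counts scaled to 1e6 gene counts in a library) averaged 1397 ± 323 (SD, n = 3) in Scramble and were 2748 in sgControl and 3250 in sgDAMP. Among the other variant U1 genes by symbol, RNVU1-31, RNVU1-22, RNVU1-27, RNVU1-15, RNVU1-3 and RNVU1-33 lay lower in CPM in all 3 Scramble libraries than in the sg libraries. RNVU1-17, RNVU1-2A and RNVU1-1 lay higher. RefSeq lists RNVU1-22 as a pseudogene. CPM rests on total counts, and against TMM scaling (the trimmed mean of M values) it places the median gene 1.96 lower on the log2 scale in Scramble than in sgControl. With TMM the log2 difference of RNVU1-8 turned to 1.19, so its direction depends on the scaling. Those of RNU1-67P, RNU1-146P and RNVU1-31 stayed below 0, at -6.21, -8.69 and -1.75.

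In the sg footprint groups the U5 class rested on its reference genes, with 99.4% of its counts in sgControl and 99.2% in sgDAMP. In Scramble footprints they held 72.8% and the copies 27.2%. RNU5B-1 (chr15:65304677-65304793) had 54623, 63006 and 63244 footprint counts in sgControl, 65422, 71455 and 71497 in sgDAMP, and 61, 115 and 450 in Scramble. Its neighbour RNU5A-1 (chr15:65296051-65296167) had 47404, 56344 and 56645 in sgControl, 51781, 55344 and 54451 in sgDAMP, and 2612, 1577 and 2018 in Scramble. Both genes are 117 bases long, so their counts compare without a length correction. RNU5D-1 had 113.6 ± 29.0 CPM in Scramble (SD, n = 3), 440 in sgControl and 615 in sgDAMP, and RNU5F-1 had 5.09 ± 0.272, 28.9 and 38.7. With TMM the log2 difference between Scramble and sgControl was -2.79 for RNU5B-1 and -0.35 for RNU5F-1. It turned to 0.23 for RNU5A-1 and 0.47 for RNU5D-1, so the direction of these genes depends on the scaling. The copy RNU5E-4P was higher in Scramble under both scalings (log2 6.51 with TMM), with 759 ± 143 CPM in Scramble (SD, n = 3), 38.7 in sgControl and 48.7 in sgDAMP.

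The U2 members were all pseudogene copies, and the copy with the most counts differed between Scramble and the sg groups. RNU2-23P had 1385, 1652 and 2086 counts in Scramble footprints and between 1 and 9 in each sg library. RNU2-33P, within the span of GSKIP, had 573, 491 and 673 in Scramble and 4 to 7 in each sg library. RNU2-32P showed the reverse, with 3042, 3771 and 3693 in sgControl, 1392, 1400 and 1379 in sgDAMP, and 5, 1 and 0 in Scramble. The minimum was set on these same counts, so each of these 3 copies could pass through the group in which it was high. Nothing is read from their contrast.

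Among U4 members the reference genes differed from the copies. RNU4-2 had 26.2 ± 11.8 CPM in Scramble footprints (SD, n = 3), 107 in sgControl and 137 in sgDAMP, and RNU4-1 had 10.97 ± 6.47, 40.1 and 41.9. With TMM the log2 difference between Scramble and sgControl turned to 0.29 for RNU4-2 and 0.53 for RNU4-1, so their direction depends on the scaling. RNU4-5P, a copy within the span of XPNPEP1, had 922, 1053 and 1112 counts in sgControl footprints, 777, 816 and 841 in sgDAMP footprints and 0 in the 3 Scramble footprint libraries. Taking a floor of 3 counts over the Scramble group, its sgControl level in CPM was at least 161-fold higher. Scaling by TMM lowers that bound by about the 1.96 (log2) given above. RNU4-5P passed the minimum only through the sg libraries, so nothing is read from the bound. The 6 U6 members, all copies, summed to 6 counts in Scramble footprints, 3288 in sgControl and 5997 in sgDAMP; RNU6-869P, RNU6-1251P and RNU6-115P led them in the sg groups and were at 0 in Scramble. RNU4ATAC had 3 counts in each Scramble library and 540 to 710 in each sg library. The U7 copy RNU7-3P was at 0 in Scramble and had 86 counts over sgControl and 138 over sgDAMP.

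**Figure D2:**
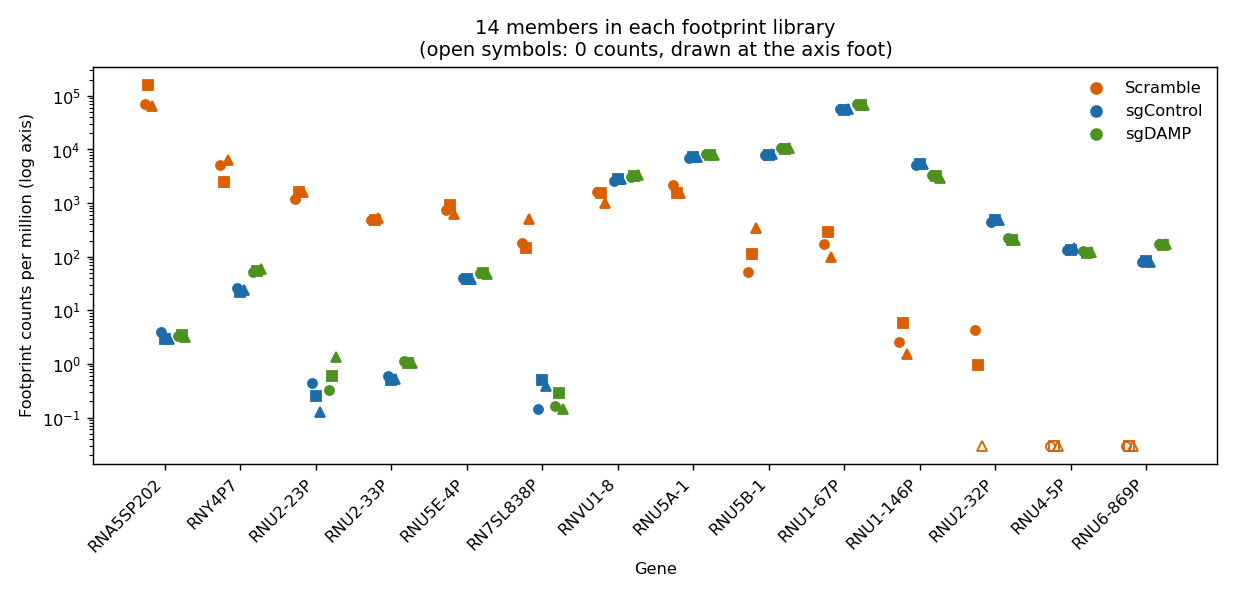
Footprint CPM (log axis) of 14 members in each of the 9 footprint libraries, with 1 symbol per library and open symbols for 0 counts. RNA5SP202 spans from about 3 CPM in the sg libraries to a mean of 98990 in Scramble, and RNU1-67P from a mean of 185 in Scramble to 55820 in sgControl.

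In the 5S class a single copy, RNA5SP202, accounted for nearly all counts. It lies at chr6:4427963-4428081, in the span of the lncRNA gene LOC107986560, and had 82239, 167724 and 85296 counts in Scramble footprints, 27, 23 and 23 in sgControl and 21, 24 and 22 in sgDAMP. These counts were 86.2% of the members' counts in Scramble, and the gene ranked 3 among all genes there. Scramble replicate 2, in which it was highest, is the library with the highest share of member counts. Of the 32 members of the class, 25 would have passed the minimum without the sg libraries. RNA5S9, the only reference 5S gene among the members, had 100, 209 and 175 counts in Scramble and 0 in the 6 sg libraries, and was in CPM at least 1050-fold higher in Scramble than in sgControl with the floor of 3 counts over the group. The copies RNA5SP211, RNA5SP452 and RNA5SP86 followed with 1438, 916 and 542 counts over Scramble and 0 in sgControl. RNA5S9 and these copies passed the minimum through their Scramble counts, so nothing is read from these contrasts. RNA5SP389, RNA5SP370, RNA5SP259 and RNA5SP141 were at 0 in Scramble. RNA5SP295, with 27 counts over Scramble and 361 over sgControl, was lower in CPM. With TMM its log2 difference turned to 1.01, so its direction depends on the scaling.

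The 7SL members were 2 genes and 9 copies, and 3 of the copies were at 0 in Scramble. Counts of 7SL members given here are not scaled to the lower depth of the Scramble libraries. RN7SL1 had 786, 682 and 700 footprint counts in sgControl, 1492, 1748 and 1856 in sgDAMP, and 10, 18 and 16 in Scramble. RN7SL3 had 7, 4 and 6 in sgControl, 20, 23 and 35 in sgDAMP, and 2, 4 and 6 in Scramble. RN7SL1 lies at chr14:49586580-49586878 within the annotated span of RPS29, a ribosomal protein gene, and RN7SL3 at chr14:49853616-49853914 outside any such span. The copies RN7SL838P and RN7SL564P had 210, 150 and 672 and 146, 180 and 622 counts in Scramble, with replicate 3 highest in both, and 1 to 13 in each sg library. The 1 7SK member, the copy RN7SKP118, had 18.4 ± 1.39 CPM in Scramble (SD, n = 3), 4.58 in sgControl and 5.28 in sgDAMP.

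Among Y RNAs the copy RNY4P7, within the span of WDR33, had 6063, 2513 and 8349 counts in Scramble footprints, 182, 172 and 187 in sgControl and 320, 375 and 409 in sgDAMP. The reference gene RNY4 had 63, 9 and 103 in Scramble, 358, 415 and 427 in sgControl and 769, 826 and 905 in sgDAMP. In CPM, RNY4 stood at 47.0 ± 35.6 in Scramble (SD, n = 3), 53.4 in sgControl and 126 in sgDAMP, while with TMM its log2 difference between Scramble and sgControl was 2.37. RNY3, the other reference gene, had 0 to 23 counts in any library. The 3 vault RNA genes lie side by side on chromosome 5. VTRNA1-1 and VTRNA1-2 had 154.0 ± 31.7 and 176 ± 84.5 CPM in Scramble (SD, n = 3), against 61.3 and 13.9 in sgControl and 40.5 and 10.8 in sgDAMP. VTRNA1-3 had 8.02 ± 3.71 CPM in Scramble, 56.2 in sgControl and 28.9 in sgDAMP and, with TMM, a log2 difference of -0.60 between Scramble and sgControl.

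The division of counts between pairs of members within a library does not depend on how libraries are scaled. The pairs given here were chosen after their values were seen and have no test. RNU5B-1 took 2.28%, 6.80% and 18.2% of the counts of RNU5B-1 and RNU5A-1 in the 3 Scramble footprint libraries. It took 53.54%, 52.79% and 52.75% in the sgControl libraries and 55.82%, 56.35% and 56.77% in the sgDAMP libraries. RNVU1-8 took 84.6% to 91.2% of its counts with RNU1-67P in Scramble, 4.69% in sgControl and 4.52% in sgDAMP. RNY4P7 took 98.8% to 99.6% of its counts with RNY4 in Scramble, 31.1% in sgControl and 30.6% in sgDAMP. Between sgControl and sgDAMP the pairs RNVU1-8 with RNU1-67P and RNY4P7 with RNY4 thus divided almost alike, while other pairs did not. RNU1-146P took 8.291%, 8.866% and 8.822% of its counts with RNU1-67P in the sgControl libraries, and 4.635%, 4.361% and 4.168% in the sgDAMP libraries. RNVU1-22 took 40.4%, 42.21% and 42.45% of its counts with RNVU1-31 in the sgControl libraries, and 20.6%, 19.38% and 19.66% in the sgDAMP libraries. Some of these members varied between libraries beyond sampling noise, so library values are given in place of counting intervals.

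**Figure D3:**
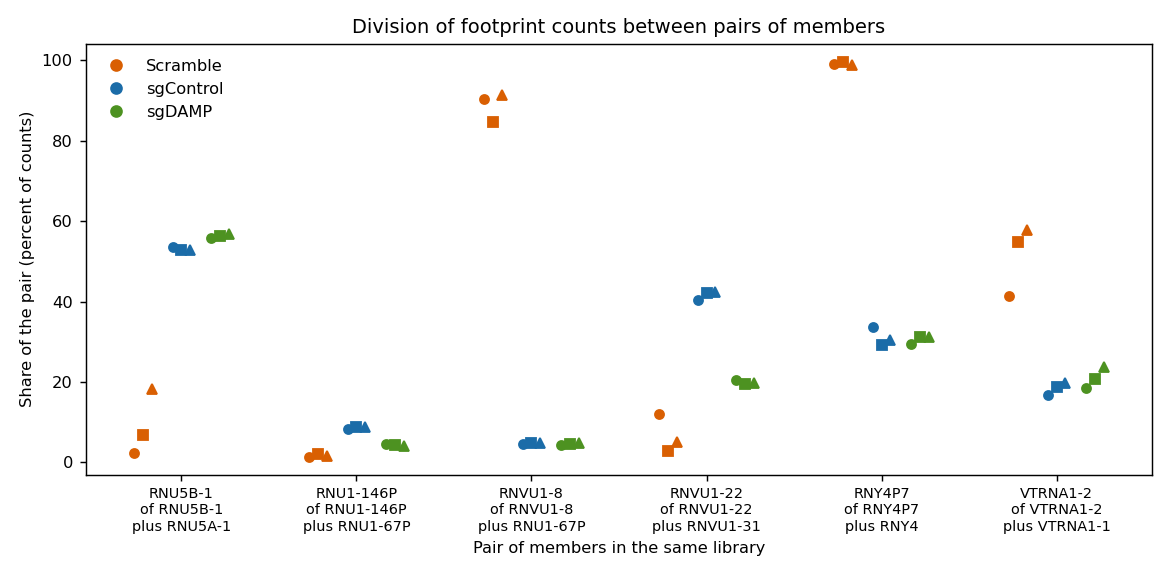
Share of the summed counts of 2 members (percent, linear axis) that fell to the first of them, for 6 pairs in each of the 9 footprint libraries, with 1 symbol per library. RNU5B-1 lies at 2.28% to 18.2% in Scramble and between 52.7% and 56.8% in the sg libraries, and RNVU1-22 is lower in the sgDAMP libraries than in the sgControl libraries.

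The comparison of sgDAMP with sgControl footprints asks which members differed with the knockout of DAMP. It sets 1 summed sample against 1, so it has no replicate check and no p-value: a member was counted as higher or lower when its ratio of summed counts, scaled by TMM, was at least 2 or at most 0.5 with a 95% counting interval off 1. Of 97 members with at least 30 counts over both groups 13 were higher and 10 were lower. Over all 14289 genes with as many counts, 7.15% were higher and 5.33% were lower. The members' median ratio was 1.08. Scaling by total counts gave 23 members higher and 7 lower, and over all genes 1581 higher and 494 lower against 1021 and 761 with TMM. The members as a whole had a ratio of 0.998 (0.996 to 1.0) with TMM and 1.17 (1.17 to 1.17) with total counts. These intervals cover counting error only, while the members' share ran from 9.82% to 10.08% of gene counts across the sgDAMP libraries.

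By class the summed ratio was 0.985 (0.983 to 0.988) for U1, 1.05 (1.05 to 1.06) for U5 and 0.915 (0.885 to 0.945) for U4, of which U1 and U4 turned to 1.15 and 1.07 with total-count scaling. It was 0.424 (0.410 to 0.438) for U2 and 0.528 (0.497 to 0.561) for vault RNA. It was 1.76 (1.69 to 1.84) for U6, 1.83 (1.75 to 1.91) for Y, 1.85 (1.70 to 2.01) for 5S and 2.01 (1.92 to 2.1) for 7SL. Total-count scaling placed U2 at 0.496, vault RNA at 0.619, U6 at 2.06, Y at 2.14, 5S at 2.16 and 7SL at 2.35. The Y ratio holds for the members alone, with 3255 counts in sgControl and 6179 in sgDAMP. The 756 genes named only Y_RNA, outside the symbols used, went the other way, from 41800 to 30613 counts. The single members of U7, U4atac and 7SK had 1.55 (1.17 to 2.05), 0.822 (0.770 to 0.878) and 0.983 (0.742 to 1.30) with TMM, and 1.81, 0.963 and 1.15 with total counts. The intervals of class sums also cover counting error only. RNU1-67P, with most of the U1 counts, and RNU5A-1 varied between libraries beyond sampling noise in both groups. The U1 share of gene counts ran from 6.73% to 6.85% across sgControl libraries and from 7.71% to 7.94% across sgDAMP libraries.

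Within classes the ratios spread more widely than the sums. In U1, RNU1-67P had a ratio of 1.05 (1.05 to 1.05) and RNVU1-8 of 1.01 (0.999 to 1.02), whereas RNVU1-22 had 0.384 (0.370 to 0.399), RNU1-14P 0.395, RNU1-140P 0.432 and RNU1-21P 0.439. RNU1-146P had 0.506 (0.501 to 0.511), just short of the 2-fold line. Counts of RNU1-67P, RNU1-146P, RNVU1-8 and RNU5A-1 varied beyond sampling noise in both groups, and those of RNVU1-22 in sgControl. Their counting intervals leave that variation out. RNVU1-2A, with 20, 20 and 26 counts in sgControl and 65, 82 and 90 in sgDAMP, had 3.46 (2.63 to 4.62), and RNU1-8P had 2.76. In U2, RNU2-32P with 0.383 (0.369 to 0.397) set the class sum, RNU2-61P had 0.159, RNU2-36P 0.373 and RNU2-48P 0.397, and RNU2-3P went from 46 to 366 counts with a ratio of 7.67 (5.64 to 10.7). In U5, RNU5B-1 had 1.11, RNU5A-1 0.972 (0.965 to 0.978; 1.14 with total-count scaling), and the copy RNU5A-8P 2.01.

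All 6 U6 copies had ratios above 1, from 1.18 for RNU6-1251P to 4.49 for RNU6-743P, the latter from 23 counts in sgControl and 107 in sgDAMP. RN7SL1 had 2.27 (2.16 to 2.39) and RN7SL3 4.43 (2.59 to 7.98). Counts of RN7SL1 varied beyond sampling noise in sgControl, which its counting interval leaves out. RNY4, RNY4P10 and RNY4P7 had 2.01, 1.99 and 1.97, with intervals that overlapped. All 3 vault genes had ratios below 1: 0.565 for VTRNA1-1, 0.659 for VTRNA1-2 and 0.439 for VTRNA1-3. Among 5S copies RNA5SP295 had 1.91, RNA5SP150 4.90 and RNA5SP370 5.22, and RNA5SP357 had 0.111, with 61 and 7 counts. RNA5SP202, so abundant in Scramble, had 73 counts in sgControl and 67 in sgDAMP and a ratio of 0.885 (0.626 to 1.25).

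**Figure D4:**
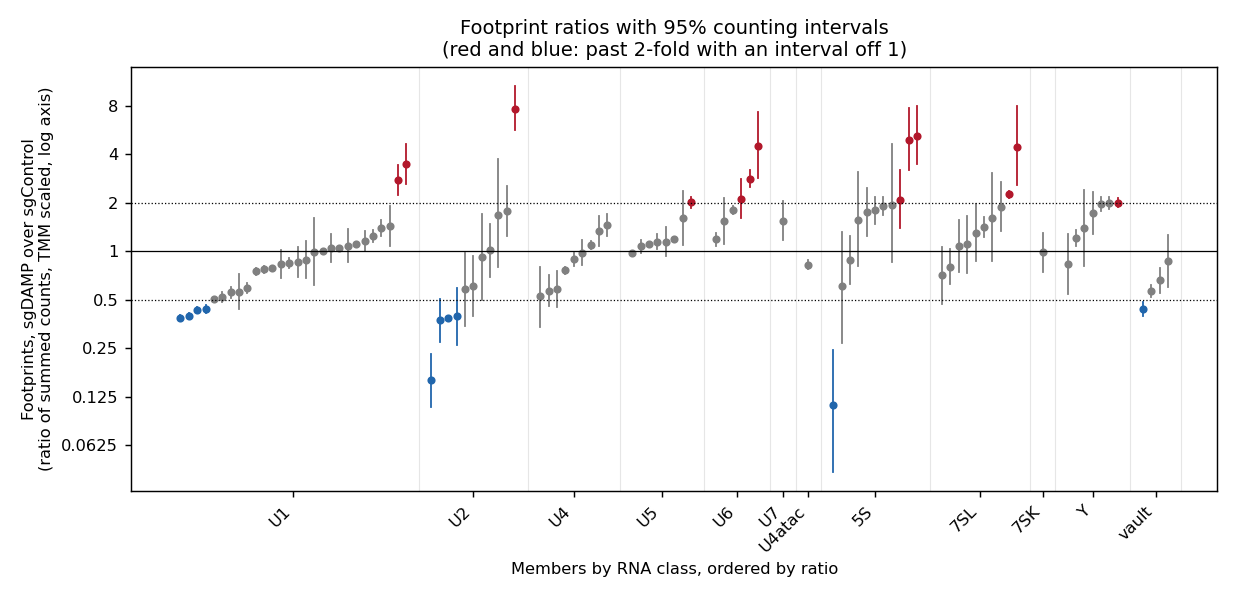
Ratio of footprint counts in sgDAMP over sgControl (log axis, TMM scaled) for the 97 members with at least 30 counts, grouped by class and ordered by ratio within each class; points are ratios of summed counts and bars 95% counting intervals. U1 members other than RNVU1-2A and RNU1-8P lie between 0.384 and 1.44, and all U6 members lie above 1.

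The poly(A) mRNA libraries were not used to choose the members, and selection on poly(A) tails leaves little RNA of these kinds. In mRNA, sgDAMP was compared with sgControl by the quasi-likelihood test of edgeR with Benjamini-Hochberg adjustment over all genes, 3 libraries a group. It called 0.0% of 14032 genes (741 had an unadjusted p under 0.05, and the smallest adjusted p was 0.220), and 0 of the 6 members that passed the filter on low counts. The DESeq2 Wald test called 1 gene higher and 20 lower, with 0 members among them. RN7SL1 had 218, 196 and 189 CPM in sgControl and 133, 149 and 132 in sgDAMP, a log2 change of -0.69 (SE 0.26, adjusted p = 0.862). RN7SL3 had 41.8, 42.5 and 39.5 CPM in sgControl and 23.5, 24.5 and 21.4 in sgDAMP, a log2 change of -0.98 (SE 0.26, adjusted p = 0.862). For both genes the 3 sgDAMP libraries lay below the 3 sgControl libraries without overlap, as 3.02% of all genes tested did, while 0 of the 6 lay above without overlap, as 8.07% of all genes did, and neither change passed the adjusted threshold. RN7SL5P had a log2 change of 2.07 (SE 0.87, adjusted p = 0.862), which rested on 59 counts in sgDAMP replicate 3 against 5 and 13 in the other 2 libraries. RNA5SP202, VTRNA1-2 and RN7SL4P had log2 changes of 0.67, 0.39 and -0.27 with adjusted p of 0.862, 0.910 and 0.923. In bulk libraries such as these, fewer cells that make an RNA and less of it in each cell cannot be told apart.

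**Figure D5:**
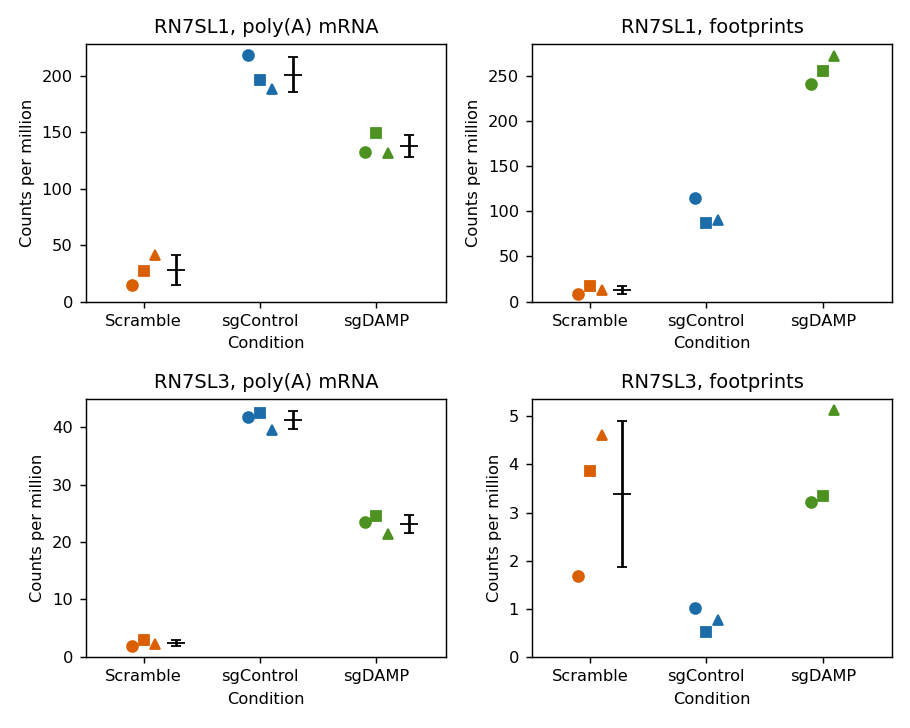
CPM (linear axes from 0) of RN7SL1 and RN7SL3 in each mRNA library (left) and footprint library (right), with 1 symbol per library; black marks are means and bars SD over 3 libraries, left out where a footprint group counts as 1 sample. In mRNA the sgDAMP libraries lie below the sgControl libraries, and in footprints they lie above them.

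Scramble and sgControl mRNA differed in how reads were assigned before any gene was compared. Reads in no annotated feature made up 42.5% to 43.2% of lines in Scramble mRNA and 1.15% to 1.43% in sgControl mRNA. Ambiguous reads made up 3.13% to 3.21% and 13.7% to 14.3%. Whether the differences below follow from this was not tested. The edgeR quasi-likelihood test called 79.6% of 16360 genes, 46.1% higher and 33.4% lower in Scramble. All 5 members that were tested passed, 1 higher and 4 lower. RN7SL1 fell by 3.68 on the log2 scale (SE 0.35, adjusted p = 1.11e-05), from 200.9 ± 15.3 to 27.9 ± 13.6 CPM (SD, n = 3). RN7SL3 fell by 4.94 (SE 0.24, adjusted p = 4.11e-07), from 41.3 ± 1.57 to 2.39 ± 0.550 CPM. RNA5SP202 fell by 3.31 (SE 0.59, adjusted p = 0.000549), with 71, 31 and 70 mRNA counts in sgControl and 2, 4 and 14 in Scramble, the opposite order to that in footprints. RN7SL4P fell by 1.77 (SE 0.66, adjusted p = 0.0304) and was no longer called with total-count scaling (adjusted p = 0.220) or without sgControl replicate 1 (adjusted p = 0.0924), Scramble replicate 1 (0.109) or Scramble replicate 2 (0.0928). RNU4-5P rose: it had 60, 54 and 62 mRNA counts in Scramble and 0 in sgControl and sgDAMP, again the opposite order to that in footprints. Its 203 bases lie inside XPNPEP1, and whether reads of that gene were counted for it was not tested.

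For footprints, the 3 Scramble libraries were tested against the summed sgControl sample, which was assumed to vary like the Scramble libraries. The log2 differences with TMM given above for members are estimates of this fit, printed as sizes only. Because the members' sums included both groups, a member could pass the minimum only through the group in which it was high: 49 would have passed on the Scramble libraries alone and 84 on the sg libraries alone. The edgeR quasi-likelihood test called 63.0% of 8527 genes, 27.5% higher and 35.5% lower in Scramble, and 50 higher and 24 lower of the 91 members tested. Nothing is read from that count. With total-count scaling, which moved the median gene by -1.96 on the log2 scale, it was 40 higher and 28 lower, and over all genes 337 higher and 4270 lower against 2343 and 3029 with TMM. Without Scramble replicate 3, the library lowest in protein-coding share, 50 members were called higher and 23 lower.

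The proteins that partner these RNAs were read from 14 lists of 145 genes. In mRNA, 0 of 143 tested were called between sgDAMP and sgControl by edgeR. In footprints 3 of 145 were past 2-fold, all higher in sgDAMP, beside 7.15% higher and 5.33% lower over all genes. HEXIM1, the inhibitor of P-TEFb that binds 7SK, went from 1615 to 3473 counts with a ratio of 2.07 (1.95 to 2.20). TEP1, a vault and telomerase protein, went from 17 to 108 with 6.13 (3.65 to 10.9), and RPP25L, of the RNase P and MRP list, from 56 to 119 with 2.05 (1.48 to 2.87). The median over the lists was 0.05 on the log2 scale, beside -0.0011 for all genes. Total-count scaling put 7 of 145 past the line, all higher, beside 1581 higher and 494 lower of all 14289 genes. The 8 proteins of the signal recognition particle and its receptor, 8 Sm proteins and 12 U2 proteins held none.

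Between Scramble and sgControl mRNA, whose library differences are given above, 43 partner genes were higher and 75 lower of 144 tested. Over all genes 46.1% were higher and 33.4% lower. The median log2 change was -0.58 beside 0.42 for all genes. Total-count scaling gave 62 higher and 46 lower and a median of 0.26. Over all 16360 genes it gave 9704 higher and 3160 lower and a median of 1.25. Among the proteins of the U4/U6.U5 tri-snRNP 18 of 21 were lower and 0 higher, LSM2 by -2.29 (SE 0.16, adjusted p = 2.07e-06). All 3 U1 proteins were lower, SNRPC by -1.88 (SE 0.15, adjusted p = 4.33e-06). Both genes of the Y RNA list were higher, SSB, which encodes La, by 2.41 (SE 0.37, adjusted p = 0.000205) and RO60 by 3.31 (SE 0.57, adjusted p = 0.000422). Sm proteins had 5 of 8 lower, SNRPB by -2.60 (SE 0.17, adjusted p = 1.59e-06), and the U2 list 9 of 12 lower and 1 higher. Total-count scaling left 12 of 21 tri-snRNP, 3 of 8 Sm and 7 of 12 U2 proteins lower and 2, 2 and 3 higher. With TMM, RNA polymerase III and its factors had 10 higher and 10 lower of 27, and Integrator 7 and 6 of 14. The snRNP assembly and export list had 8 and 6 of 17, minor spliceosome 3 and 3 of 7, and 7SK 4 and 3 of 7. Signal recognition particle proteins had 4 and 2 of 8, RNase P and MRP 3 and 7 of 10, vault 1 and 2 of 3, and 5S 0 and 1 of 5. Genes called higher included GEMIN7, of the complex that assembles Sm cores, at 6.77 (SE 0.32, adjusted p = 3.64e-07), and BDP1, a subunit of the RNA polymerase III factor TFIIIB, at 3.07 (SE 0.26, adjusted p = 5.52e-06). In footprints the fit was against 1 summed sgControl sample whose spread was assumed. With TMM the 121 partner genes had a median log2 difference of -1.02, beside -0.94 for all genes. Total-count scaling gave -3.02 beside -2.93. With TMM, SSB and RO60 were at -4.73 and -2.41.

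Copies named only by family in the annotation fell outside the symbols used. The largest set was 756 genes named Y_RNA, with 3554 footprint counts in Scramble, 41800 in sgControl and 30613 in sgDAMP. These counts fell from sgControl to sgDAMP, whereas those of the Y members rose.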

How the data were processed

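The 18 libraries hold poly(A) mRNA or ribosome footprints from NCI-H1975, and samples were grouped by the titles in the labels. The deposited values are raw counts per gene, whole numbers for 61487 genes a library, with closing lines for reads assigned to no gene. Per the submitters' processing notes the tools included HTSeq 0.11.2, HISAT2 2.1.0, edgeR, SAMtools 1.10 and Trimmomatic 0.30, with build GRCh38. Which annotation release was used, whether counting used strand and how multi-position reads were treated is not given in the sources used here. Lines for reads assigned to no gene, 22.2% to 24.2% of a library in sg mRNA, 54.0% to 54.3% in Scramble mRNA, 65.8% to 70.0% in sg footprints and 95.7% to 95.8% in Scramble footprints, were left out of totals and tests. Symbols were matched for 61369 genes. Positions, lengths and overlaps of the 120 members came from a RefSeq table of GRCh38 by symbol.

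CPM divides by a library's sum over genes. mRNA comparisons and Scramble against summed sgControl footprints used edgeR 4.0.16 in R 4.3.3 (filterByExpr with minimum count 10, TMM, quasi-likelihood F test, two-sided, Benjamini-Hochberg threshold 0.05 over all genes), checked on simulated data. Footprint ratios of sgDAMP to sgControl carry exact Clopper-Pearson 95% intervals (scipy 1.17.1), which, like floors of 3 counts, hold for counting error alone: with no molecular identifiers, PCR copies cannot be told from separate molecules. Gene counts per library, from 1035159 to 17464782, set their width. Deviations from the group mean were not shared by replicate number, so no fit is paired. In mRNA of sgControl and sgDAMP, same-numbered libraries had correlations of 0.472, -0.345 and -0.551. Libraries of unlike number did deviate together, with 0.769 for sgControl replicate 3 and sgDAMP replicate 2.

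Members and gene lists were chosen with earlier results of these data known. Named members were the 3 with the most footprint counts in each class, those with a reference gene symbol, up to 10 called members with the largest change in each test, the genes beside the minimum, and up to 2 called partner genes a list; others named were chosen after their values were seen. Alternatives were DESeq2 1.42.0 size factors and Wald test, total-count and upper-quartile scaling, protein-coding scaling, other filters and denominators, libraries as replicates, a replicate block, and leaving out each library.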

Additional observations from a re-analysis of the deposited data

Results flagged for a closer look

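RN7SL1 and RN7SL3 lay on opposite sides of sgControl in the 2 assays of sgDAMP cells. In mRNA the log2 change was -0.69 for RN7SL1 and -0.98 for RN7SL3, with all 3 sgDAMP libraries below all 3 sgControl libraries, and neither passed the adjusted threshold of edgeR. In footprints the ratio of sgDAMP to sgControl was 2.27 for RN7SL1 and 4.43 for RN7SL3, with counting intervals above 1; each footprint group counts as 1 sample, so this side has no replicate support. The difference between the assays was not tested. Over 12 alternatives the mRNA change ran from -0.81 to -0.55 (adjusted p from 0.266 to 0.9999) for RN7SL1 and from -1.09 to -0.84 (adjusted p from 0.121 to 0.9999) for RN7SL3. Over 13 alternatives the footprint ratio ran from 2.15 to 2.75 for RN7SL1 and from 3.74 to 5.36 for RN7SL3. The RN7SL3 ratio rests on 17 counts in sgControl and 78 in sgDAMP.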

How the results depend on the processing

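Of mRNA sgDAMP against sgControl, where TMM with edgeR called 0 genes, fits with no count filter called 5 higher and 9 lower and the DESeq2 Wald test 1 and 20; leaving out each library gave 0 to 1 higher and 0 to 5 lower, the most without sgControl replicate 3, and 0 members in each fit. Leaving out 1 library turned the sign of uncalled changes of VTRNA1-2 (-0.0056 to 1.57) and RN7SL4P (-0.68 to 0.17), turned without sgControl replicate 1, and RNA5SP202 (-0.0152 to 1.01), turned without sgDAMP replicate 2. In mRNA Scramble against sgControl, total-count scaling called 3160 genes lower, and 8 members were lower with no filter. In footprints Scramble against sgControl, total-count scaling called 337 genes higher; genes called lower were 4633 with no filter, 1681 with the DESeq2 Wald test, 5248 with 3 sgControl libraries as replicates and 4928 with the replicate block added, and members called lower were 15 with the Wald test and 37 with libraries as replicates. In footprints sgDAMP against sgControl, genes past 2-fold were 1581 higher and 494 lower with total-count scaling, 1734 and 463 with protein-coding library sizes, 1712 and 1335 with at least 10 counts, and 474 lower with edgeR on libraries as replicates, with or without the replicate block. Members higher were 23 under total-count scaling and under protein-coding library sizes, which also turned the ratios of RNU5A-1 (1.14 and 1.18) and RNU4-1 (1.05 and 1.08). In these groups the block left 14 members higher and 10 lower; in mRNA Scramble it ended the call of RN7SL4P (adjusted p = 0.0516) and changed no other member call in mRNA.

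The members' share moved with the denominator. Of protein-coding counts it was 86.8% in Scramble, 10.8% in sgControl and 13.0% in sgDAMP footprints. Of all lines it was 0.491%, 2.89% and 2.998% in footprints and 0.00169%, 0.0192% and 0.0131% in mRNA. With no minimum it was 0.00685% in Scramble mRNA. The ratio of the members' share in footprints to that in mRNA was 3106, 342 and 582 in Scramble, sgControl and sgDAMP, and 21580, 414 and 724 over protein-coding counts. Leaving out each library, the counts of members kept within 1.5 times: 16 to 23 lower and 50 to 51 higher in Scramble footprints, 11 to 15 higher and 10 to 12 lower in sgDAMP footprints.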
